A study of Mus musculus with 24 samples.

Results

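The genes described here are 9 output genes of the circadian clock. They are the PAR bZIP factors Dbp, Tef and Hlf, the bZIP repressor Nfil3, the repressors Ciart, Bhlhe40 and Bhlhe41, the deubiquitinating enzyme Usp2 and the cell cycle kinase Wee1. Each was found by its gene symbol among the 19505 genes that the platform annotation names with a single symbol, and each had 1 probe set, so that all 9 were measured. They were read on Mouse Clariom S HT arrays from the cardiac left ventricle and the cerebral cortex of 12 mice aged 2 months. There were 6 Tatdn1+/+ (wild-type) and 6 Tatdn1-/- (knockout) mice, 3 of each sex in either genotype, and each tissue of a mouse went on an array of its own (24 arrays). Tatdn1 encodes the mammalian counterpart of the bacterial TatD protein. The knockout mice lacked Tatdn1 exon 3 in the whole body: the floxed exon had been removed with a CAG-Cre transgene that was then bred out, after the neomycin cassette had been removed with ROSA-FLPe, on a C57BL/6J background. The labels name no treatment, and every array held a single animal's tissue. Values are RMA log2 values, so that a difference of 1 is a doubling. The hour of death is not stated in the sources read.

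The circadian clock of mammals is a feedback loop. The activators CLOCK (or NPAS2) and ARNTL (BMAL1) bind E-boxes, switch on the Per, Cry and Nr1d genes, and are then repressed by PER and CRY proteins, while REV-ERB and ROR nuclear receptors set the level of Arntl from another DNA element, the RORE. Output genes carry the rhythm from the loop to the rest of the cell. DBP, TEF and HLF are activators that bind D-boxes, NFIL3 (E4BP4) represses from the same D-boxes, and BHLHE40 (DEC1) and BHLHE41 (DEC2) compete at E-boxes, and CIART (CHRONO) represses the CLOCK and ARNTL activators. In mouse heart and liver the transcripts of most of these genes swing widely over the day, so their level in one sample also depends on the hour of death.

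RefSeq start-site windows on GRCm38.p6, each running from 250 bases before to 50 bases after an annotated transcription start, were at hand for 7 of the 9 genes (8 windows, as Tef has 2 starts), and not for Bhlhe40 and Wee1. They were searched on both strands for the E-box CACGTG, the D-box words TTACGTAA, TTATGTAA and TTATGCAA, and the RORE core TAGGTCA, none of which overlapped another in these windows. The 4 windows below, written 5′ to 3′ on the gene's own strand with matches in capitals, are shown because they belong to genes with the largest ventricular differences described further on.
Ciart: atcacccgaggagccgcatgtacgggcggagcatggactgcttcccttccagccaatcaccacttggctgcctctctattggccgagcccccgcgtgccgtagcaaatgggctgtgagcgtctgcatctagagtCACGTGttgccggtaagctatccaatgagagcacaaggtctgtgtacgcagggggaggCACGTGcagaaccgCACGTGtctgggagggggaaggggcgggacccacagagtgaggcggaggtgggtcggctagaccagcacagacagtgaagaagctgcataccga
Bhlhe41: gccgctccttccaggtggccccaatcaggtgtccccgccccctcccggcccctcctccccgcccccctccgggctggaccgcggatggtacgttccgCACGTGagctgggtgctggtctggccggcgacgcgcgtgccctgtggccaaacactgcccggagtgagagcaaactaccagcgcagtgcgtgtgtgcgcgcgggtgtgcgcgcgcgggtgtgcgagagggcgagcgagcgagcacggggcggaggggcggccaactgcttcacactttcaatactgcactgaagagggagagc
Nfil3: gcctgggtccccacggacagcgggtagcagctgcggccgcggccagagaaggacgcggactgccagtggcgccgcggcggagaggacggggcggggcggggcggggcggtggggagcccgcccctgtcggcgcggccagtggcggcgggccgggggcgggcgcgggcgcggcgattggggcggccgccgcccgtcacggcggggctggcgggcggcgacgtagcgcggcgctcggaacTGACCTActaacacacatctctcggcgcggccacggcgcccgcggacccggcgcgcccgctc
Dbp: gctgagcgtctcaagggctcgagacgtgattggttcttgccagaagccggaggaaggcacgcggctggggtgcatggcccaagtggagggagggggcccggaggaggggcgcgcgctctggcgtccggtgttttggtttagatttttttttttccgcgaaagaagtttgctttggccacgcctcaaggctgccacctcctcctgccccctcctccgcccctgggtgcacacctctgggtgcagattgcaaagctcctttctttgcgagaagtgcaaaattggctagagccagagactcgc
The Ciart window (chr3:95882179-95882478, minus strand) held 3 E-boxes, starting at positions -116, -58 and -44 from the start site. Among all 32851 windows of the table, 7.15% held at least 1 E-box and 0.0883% held 3 or more. The Bhlhe41 window (chr6:145865371-145865670, minus strand) held 1 E-box at position -153, and both Tef windows on chromosome 15 held 1, at -127 and -138. The Nfil3 window (chr13:52980990-52981289, minus strand) held a RORE core, read on the opposite strand as TGACCTA, at -12, a word found in 2.61% of all windows. The Dbp window (chr7:45704997-45705296, plus strand) held none of the words, nor did those of Hlf and Usp2. No member window held a D-box word, and these were found in 0.119%, 0.938% and 0.743% of all windows. A match is a run of letters in this window and was not tested as a binding site.

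**Figure D1:**
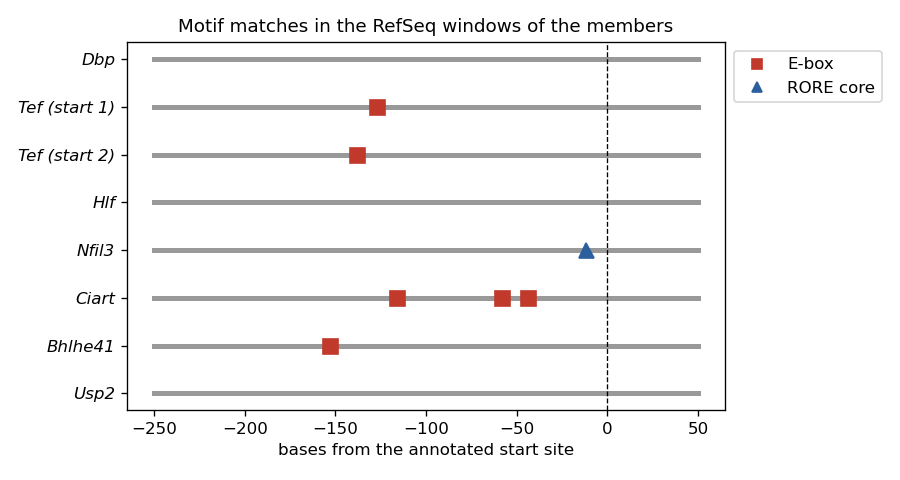
Positions of the searched words in the 8 RefSeq windows of 7 clock output genes, in bases from the annotated start (dashed line). Squares are E-boxes and the triangle is a RORE core. Ciart carries 3 of the 6 E-boxes drawn.

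Tatdn1 itself was lower in the knockouts: in ventricle it lay between 6.53 and 7.15 (median 6.87) in wild-type mice and between 4.97 and 6.03 (median 5.40) in knockouts, which did not overlap (log2 difference -1.36, SE 0.18, limma adjusted p = 0.0156). In cortex the difference was -0.78 (SE 0.17, limma adjusted p = 0.168) and 1 knockout reached into the wild-type range. Whether its probe set covers the deleted exon is not known here. Arrays of one tissue correlated at 0.975 to 0.986 in ventricle and 0.968 to 0.995 in cortex over the 22206 gene-level probe sets. The tissues matched their markers, since the summed level of 6 cardiomyocyte markers was 13.38 to 13.59 in ventricle and 6.73 to 7.25 in cortex, and that of 6 neuron markers 13.33 to 13.49 in cortex and 9.04 to 9.82 in ventricle (log2 of the sum). The mice carry code numbers 75 and 76 (all wild-type) or 77 and 78 (all knockout). What the numbers stand for is not given, and anything they mark cannot be told apart from genotype.

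In the ventricle, Dbp, Ciart, Bhlhe40 and Bhlhe41 had higher means in the knockout mice and Nfil3 a lower one, each with an unadjusted p under 0.05, and none of the 9 genes passed the limma test after adjustment over all probe sets (adjusted p from 0.252 to 0.776). The largest difference was that of Ciart, 1.24 on the log2 scale, and those of Dbp and Bhlhe41 were near 0.65. Of all probe sets, 5.08% had an unadjusted p under 0.05 with a higher mean in the knockouts and 3.37% with a lower mean, against 4 and 1 of the 9 genes, and 0.0135% passed the adjusted test. The 9 genes were chosen with earlier results of these data known. Their counts here, in cortex and between tissues are therefore no independent comparison with such shares. The median difference of the 9 genes was 0.383, and that of all probe sets 0.019. Fewer cells of a type and less RNA per cell cannot be told apart in these bulk samples.

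Dbp, a PAR bZIP factor with a wide daily swing in many mouse tissues, was measured in the wild-type ventricles at 8.83 to 9.53 with a median of 9.13. In the knockout ventricles it lay at 9.38 to 10.06 with a median of 9.81. Of the knockout mice, 5 were above every wild-type mouse, and 1 (M78-0, at 9.38) was below the highest wild-type mouse. The means were 9.12 ± 0.26 and 9.76 ± 0.26 (SD, n = 6 each), a 1.56-fold difference (log2 0.64, SE 0.15, unadjusted p = 0.000681, limma adjusted p = 0.252). An exact permutation test of the means over every split of the 12 mice gave p = 0.00433 (two-sided), where the smallest possible p is 0.00216.

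Tef and Hlf, the other PAR bZIP factors, overlapped more. Tef ran from 1.93 to 3.43 (median 2.81) in wild-type ventricles and from 2.50 to 4.07 (median 3.23) in knockout ventricles, and the array's background control entries averaged 1.54 to 2.10, so the lowest Tef values are in the range of the controls. The Tef difference was 0.43 (95% interval -0.12 to 0.99). Hlf ran from 4.34 to 5.72 (median 5.37) in wild-type mice and from 5.20 to 5.93 (median 5.64) in knockouts, a difference of 0.35 (95% interval -0.09 to 0.79). All 3 PAR bZIP factors thus had a higher mean in the knockout ventricle, with an unadjusted p under 0.05 for Dbp alone.

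Nfil3, which represses from the D-boxes that the PAR bZIP factors activate, was the only one of the 9 genes with a lower mean in the knockout ventricle. It lay at 4.54 to 5.51 (median 5.09) in wild-type mice and at 3.95 to 4.65 (median 4.52) in knockouts. The groups overlapped through a single low wild-type mouse, F76-2, at 4.54, while the other wild-type mice were at 4.97 or above. The difference was -0.63 (SE 0.16), a 1.55-fold lower level (unadjusted p = 0.00139, limma adjusted p = 0.308, exact permutation p = 0.00866).

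Among the repressors of the loop, Ciart was the most variable gene of the 9. It ran from 2.42 to 4.85 (median 3.97) in wild-type ventricles and from 3.99 to 6.35 (median 4.69) in knockouts. The lowest wild-type values were 2.42 (F76-2) and 2.50 (M75-0), and the highest knockout values 6.35 (M77-1) and 5.80 (F77-3). Its difference of 1.24 had an SE of 0.49 (unadjusted p = 0.0225, limma adjusted p = 0.517, exact permutation p = 0.0671), and 3 of the 6 knockouts were above every wild-type mouse.

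Bhlhe41 lay at 6.32 to 6.93 (median 6.71) in wild-type ventricles and at 6.89 to 7.96 (median 7.25) in knockouts. The groups touched at M78-0 (6.89) and M75-1 (6.93), and the other 5 knockouts were above all wild-type mice. The difference was 0.67 (SE 0.17, 1.59-fold, unadjusted p = 0.00132, limma adjusted p = 0.308, exact permutation p = 0.00433). Its paralog Bhlhe40 lay at 6.97 to 8.04 (median 7.79) and at 7.70 to 8.32 (median 8.06), a smaller difference of 0.38 (SE 0.18, unadjusted p = 0.0492, limma adjusted p = 0.588, exact permutation p = 0.0649). The lowest Bhlhe40 value, 6.97, was that of wild-type mouse F76-3, and without that mouse the difference was 0.25 (unadjusted p = 0.125, limma adjusted p = 0.649).

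The effectors Usp2 and Wee1 did not reach an unadjusted p of 0.05 in ventricle. Usp2, which removes ubiquitin from substrates including clock proteins, ran from 8.51 to 9.15 (median 8.73) in wild-type mice and from 8.68 to 9.30 (median 9.02) in knockouts, with a difference of 0.23 (95% interval -0.07 to 0.54). Wee1, the kinase that holds back entry into mitosis, ran from 5.02 to 6.57 (median 5.52) and from 5.41 to 6.12 (median 6.02), with a difference of 0.28 (95% interval -0.21 to 0.76). The 6.57 of F76-3 was the highest Wee1 value of the tissue, and without that mouse the difference was 0.47 (unadjusted p = 0.0213, limma adjusted p = 0.473).

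**Figure D2:**
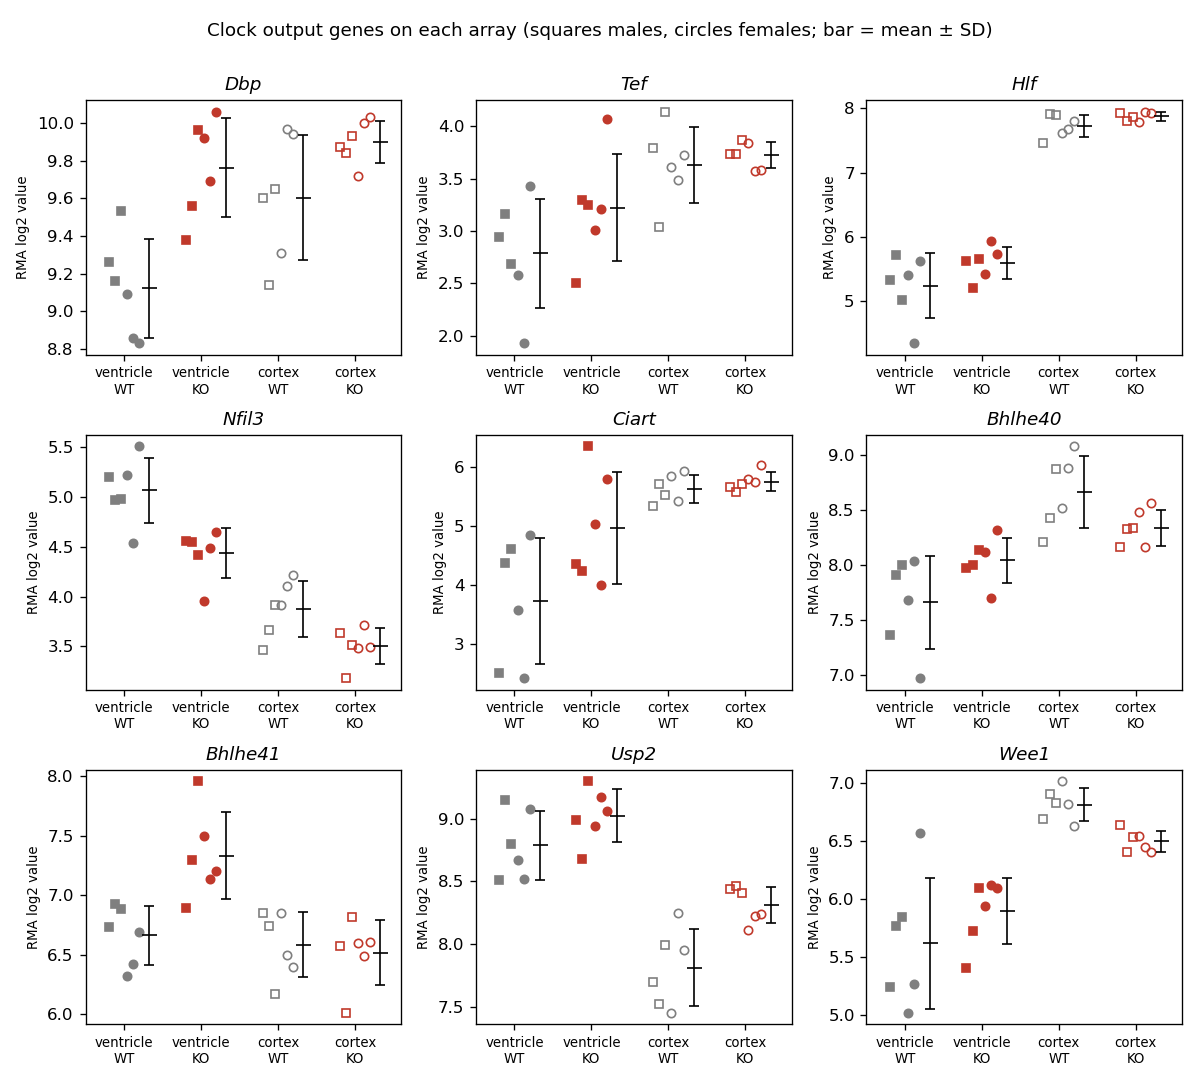
RMA log2 value of each clock output gene on each array, by tissue and genotype (WT, Tatdn1+/+; KO, Tatdn1-/-). Squares are males and circles females, filled for ventricle and open for cortex, with the mean and SD of the 6 mice beside them; Dbp and Bhlhe41 each have 5 of 6 knockout ventricles above all wild-type ventricles, and the Wee1 cortices of the 2 genotypes meet at 6.63 and 6.64.

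With each of the 12 mice left out in turn, Dbp, Bhlhe41 and Nfil3 had an unadjusted p under 0.05 in all 12 ventricle fits, Ciart in 8 and Bhlhe40 in 4. The count of 5 genes went down to 3 without wild-type mouse M75-0, without knockout mouse M77-1 or without knockout mouse F77-3. The shares of all probe sets in these fits were 7.45%, 7.97% and 8.47%. In none of the 9 genes did the ventricle groups separate fully, which 0.59% of all probe sets did.

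In the cortex, Usp2 had a higher mean in the knockout mice and Nfil3, Bhlhe40 and Wee1 lower ones, each with an unadjusted p under 0.05, and again none passed the adjusted test (limma adjusted p from 0.372 to 0.957). Of all probe sets, 2.39% had an unadjusted p under 0.05 and a higher mean and 4.59% a lower mean, against 1 and 3 of the 9 genes, and 0.00901% passed the adjusted test. The median difference of the 9 genes was 0.09 and that of all probe sets -0.017. The largest difference in size was that of Usp2, 0.50.

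Usp2 ran from 7.45 to 8.25 (median 7.83) in wild-type cortices and from 8.11 to 8.46 (median 8.32) in knockouts. The knockouts were tightly grouped, with 3 of them above every wild-type mouse. The means were 7.81 ± 0.31 and 8.31 ± 0.14 (SD, n = 6 each), a difference of 0.50 (SE 0.14, 1.42-fold, unadjusted p = 0.00255, limma adjusted p = 0.372, exact permutation p = 0.00866). Wee1 ran from 6.63 to 7.02 (median 6.83) in wild-type mice and from 6.41 to 6.64 (median 6.50) in knockouts. Only M78-0 among the knockouts, at 6.64, reached the lowest wild-type mouse, F76-3, at 6.63. The Wee1 difference was small and tight at -0.31 (SE 0.11, unadjusted p = 0.00924, limma adjusted p = 0.522, exact permutation p = 0.00433), in a tissue where the SD within groups was 0.14 and 0.09.

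Nfil3 was again lower on average in the knockouts, with values from 3.46 to 4.22 (median 3.91) in wild-type cortices and from 3.18 to 3.71 (median 3.50) in knockout cortices. The difference was -0.38 (SE 0.14, unadjusted p = 0.0154, limma adjusted p = 0.586, exact permutation p = 0.026), and 1 knockout was below all wild-type mice. Nfil3 was the only one of the 9 genes with an unadjusted p under 0.05 and the same sign in both tissues. Bhlhe40 ran from 8.21 to 9.08 (median 8.70) and from 8.16 to 8.56 (median 8.34), a difference of -0.33 (SE 0.15, unadjusted p = 0.0428, limma adjusted p = 0.696, exact permutation p = 0.0628), opposite in sign to that in ventricle.

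Dbp ran from 9.14 to 9.97 (median 9.62) in wild-type cortices and from 9.72 to 10.03 (median 9.90) in knockouts, and its difference of 0.30 (SE 0.14) had an unadjusted p = 0.0542 (limma adjusted p = 0.714, exact permutation p = 0.0649). The differences of Tef, Hlf, Ciart and Bhlhe41 in cortex were 0.09 (95% interval -0.23 to 0.41), 0.15 (-0.08 to 0.38), 0.13 (-0.15 to 0.40) and -0.07 (-0.39 to 0.26). Ciart, which spanned almost 4 log2 units in ventricle, lay between 5.34 and 6.04 on all 12 cortex arrays. With each mouse left out in turn, Usp2, Wee1 and Nfil3 had an unadjusted p under 0.05 in all 12 cortex fits, Bhlhe40 in 5 and Dbp in 3. No gene of the 9 had groups that separated fully in cortex, which 0.576% of all probe sets did.

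**Figure D3:**
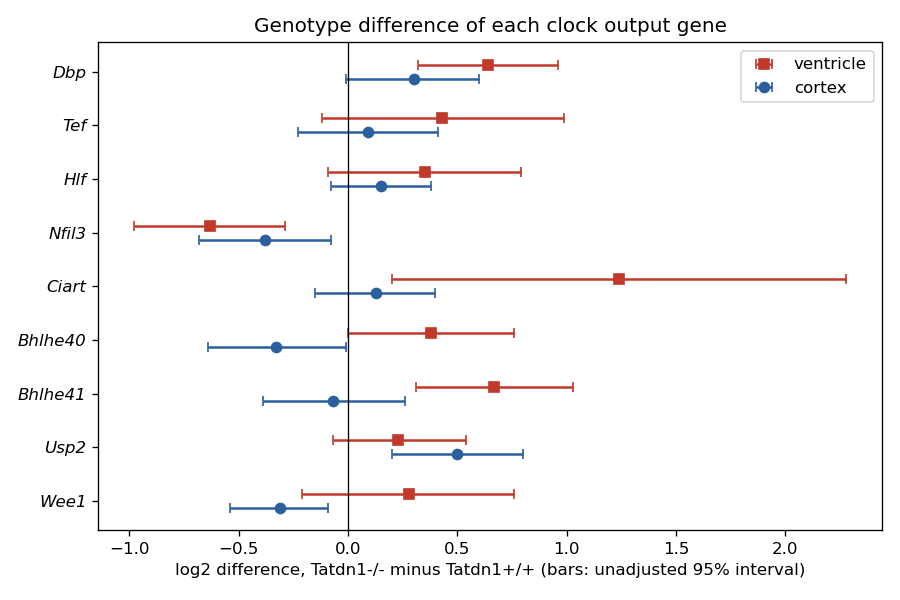
Difference between knockout and wild-type means of each clock output gene (log2 scale, horizontal axis) in ventricle (squares) and cortex (circles), 6 mice per genotype, with unadjusted 95% limma intervals. Nfil3 is to the left of 0 in both tissues, while Bhlhe40 lies at 0.38 in ventricle and -0.33 in cortex.

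The difference between the tissues was tested by itself, as the genotype difference in ventricle minus that in cortex over the 24 arrays. Bhlhe41 (0.74, SE 0.23, unadjusted p = 0.00384, limma adjusted p = 0.311) and its paralog Bhlhe40 (0.71, SE 0.24, unadjusted p = 0.00593, limma adjusted p = 0.327) had the smallest p, followed by Wee1 (0.59, SE 0.25, unadjusted p = 0.0283, limma adjusted p = 0.46) and Ciart (1.11, SE 0.52, unadjusted p = 0.0423, limma adjusted p = 0.508). These 4 genes had the larger value in ventricle, and none of the 9 had the larger value in cortex at that p, beside 6.31% and 3.22% of all probe sets with an unadjusted p under 0.05 in these directions and 0.0135% past the adjusted test in either. For the PAR bZIP factors the difference between tissues was 0.34 (Dbp, 95% interval -0.09 to 0.77), 0.34 (Tef, -0.29 to 0.98) and 0.20 (Hlf, -0.28 to 0.68), and it was -0.25 for Nfil3 (-0.70 to 0.19) and -0.27 for Usp2 (-0.68 to 0.15). The intervals of these 5 genes include 0 and differences of either sign. Both Bhlhe genes had an unadjusted p under 0.05 with each mouse left out, whereas Wee1 and Ciart had one in 6 of 12 fits each. The count of 4 genes went down to 2 without any one of M75-0, F76-1, F76-2, M77-1 and F77-3 (8.39% to 9.82% of all probe sets).

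The output genes were then set beside the loop that drives them. Of the 3 core activators Arntl, Clock and Npas2, Arntl had an unadjusted p under 0.05 in ventricle (difference -0.71, SE 0.28, unadjusted p = 0.0246, limma adjusted p = 0.52) and none in cortex. In wild-type ventricles Arntl lay at 5.35 to 6.64. The 4 knockouts with code number 77 were at 4.86 to 5.02, below every wild-type mouse, and the 2 with code number 78 at 6.13 and 6.21, inside the wild-type range. The output genes in ventricle were read by the same codes. Dbp lay at 9.69 to 10.06 in the code 77 mice and at 9.38 and 9.56 in the code 78 mice, Wee1 at 5.94 to 6.12 against 5.41 and 5.73, while Bhlhe41 (7.14 to 7.96 against 6.89 and 7.30) and Ciart (3.99 to 6.35 against 4.23 and 4.35) overlapped, and Nfil3 had similar means of 4.38 and 4.55. Of the code 78 mice both are males, and of the code 77 mice 3 are females, so the codes also go with sex.

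The split of the knockouts by code was chosen after seeing the data, so it is a description. Fitted against all 6 wild-type mice, the code 77 knockouts alone gave ventricle differences of 0.79 for Dbp, 0.79 for Bhlhe41, 1.58 for Ciart and -0.69 for Nfil3, and the code 78 knockouts alone 0.35, 0.43, 0.57 and -0.52 in the same order. An unadjusted p under 0.05 was reached by 5 of the 9 genes with code 77 and by 1, Nfil3, with code 78, where only 2 knockout mice entered the fit. The share of all probe sets under 0.05 was 6.96% with code 77 and 5.6% with code 78, and 1 gene of 9 is near the latter. In cortex, where Arntl lay at 5.97 to 6.71 in the code 77 mice and at 6.38 and 6.50 in the code 78 mice, the Usp2 difference was 0.43 with code 77 and 0.64 with code 78, and that of Wee1 -0.33 and -0.29. The part of the codes in these results was not tested.

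Of the 7 core repressors (Per1, Per2, Per3, Cry1, Cry2, Nr1d1, Nr1d2), 6 had a higher mean in knockout ventricle, none with an unadjusted p under 0.05. In cortex 4 had a lower mean, and Per2 (-0.82, SE 0.23, unadjusted p = 0.00256, limma adjusted p = 0.372) and Per1 (-0.35, SE 0.16, unadjusted p = 0.0486, limma adjusted p = 0.708) had an unadjusted p under 0.05, where 4.59% of all probe sets were lower at that p. Wild-type mouse F76-3 stood apart in ventricle for the loop itself: Nr1d1 was 5.79 there and 8.59 to 9.12 in the other 5 wild-type mice, and Per2 was 5.96 against 4.02 to 5.08. It is the mouse with the lowest Bhlhe40, Dbp and Arntl and the highest Wee1, Ciart, Nfil3 and Tef of the wild-type ventricles. Without it the ventricle difference was smaller in size for Dbp (0.58) and Nfil3 (-0.55), and larger for Ciart (1.47) and Tef (0.56). In the cortex of F76-3, Nr1d1 was 8.20, the lowest of the 6 wild-type mice.

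**Figure D4:**
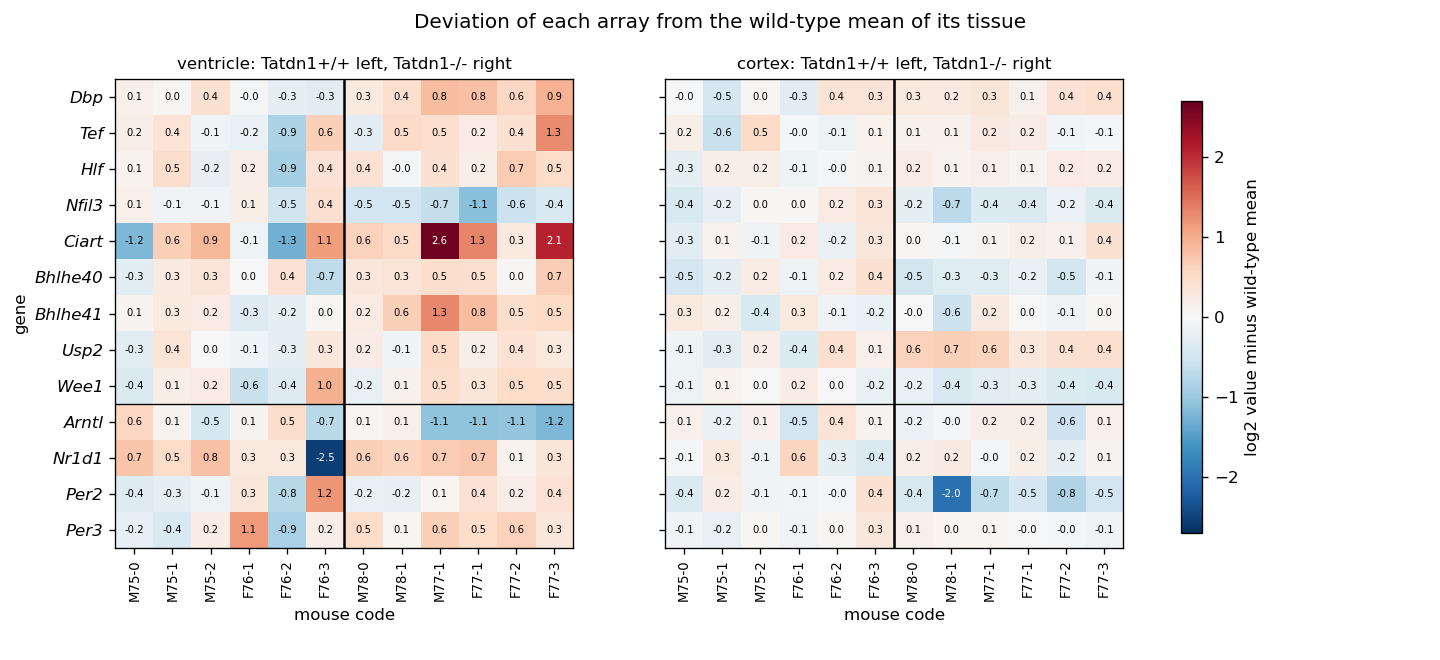
Deviation of each array from the wild-type mean of its tissue (log2, colour and printed value) for the 9 clock output genes and, under the line, 4 genes of the core loop, with mice in columns. The 4 knockout ventricles with code 77 are low in Arntl (4.86 to 5.02), the 2 with code 78 are not, and wild-type F76-3 is low in Nr1d1.

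Genes known from mouse to depend on PAR bZIP factors (Alas1, Pdxk, Nr1i3 and Ppara) had 3 higher and 1 lower mean in the knockouts in each tissue, and none had an unadjusted p under 0.05 (median differences 0.11 in ventricle and 0.08 in cortex). Por was also listed and was not measured here. Nr1i3, among the higher, averaged 2.07 and 2.27 in wild-type and knockout ventricle and 1.59 and 2.00 in cortex. That is near the background control entries (1.54 to 2.10). Of 14 other transcripts known to cycle in many mouse tissues, 1 was higher and 1 lower in ventricle at an unadjusted p under 0.05, namely Coq10b (0.46, SE 0.19, limma unadjusted p = 0.0305) and Fkbp5 (-0.58, SE 0.19, limma unadjusted p = 0.00988). In cortex 4 of the 14 were lower and none higher, with Cdkn1a, the cell cycle inhibitor p21, at -0.77 (SE 0.19, unadjusted p = 0.001, limma adjusted p = 0.295), Klf10 at -0.69, Lonrf3 at -0.56 and Leo1 at -0.27. Over all probe sets the shares at that unadjusted p were 5.08% higher and 3.37% lower in ventricle, and 2.39% and 4.59% in cortex. Nuclear receptor activators (Rora, Rorb) and clock kinases and ubiquitin ligases (Csnk1d, Csnk1e, Fbxl21, Btrc) had no gene under 0.05 in either tissue.

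Of 10 bHLH and bZIP relatives, Cebpb was lower in the knockouts in ventricle (-0.33, unadjusted p = 0.0147) and cortex (-0.41, unadjusted p = 0.0452), and Cebpg in cortex (-0.29, unadjusted p = 0.0385), with limma adjusted p of 0.488, 0.707 and 0.688. The share of all probe sets lower at an unadjusted p under 0.05 was 3.37% in ventricle and 4.59% in cortex. Bhlhe40, Per1 and Per2 are also induced by neuronal activity in mouse, and 10 immediate early genes were read beside them. All 10 had a lower mean in knockout cortex (median difference -0.55, and -0.017 over all probe sets). Fos (-0.94), Nr4a1 (-0.86), Fosb (-0.80) and Ier2 (-0.52) had an unadjusted p under 0.05 there, with limma adjusted p of 0.58 to 0.626. In ventricle 7 of the 10 had a higher mean, and Junb (0.60, unadjusted p = 0.0042, limma adjusted p = 0.397) was under 0.05, where 5.08% of all probe sets were higher at that p. The part of the immediate early genes in the cortex values of Bhlhe40, Per1 and Per2 was not tested.

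Markers of other cells and regions were read in the same groups. The share of all probe sets with an unadjusted p under 0.05 was 8.46% in ventricle and 6.98% in cortex. In ventricle the means of all 5 atrial markers were higher in the knockouts (summed level 9.11 to 10.73 in wild-type and 9.81 to 11.68 in knockout mice), and none had an unadjusted p under 0.05. That sum mostly follows Nppa, the brightest of the 5, with means of 9.99 and 10.30 in wild-type and knockout ventricles. All 5 endothelial markers were also higher on average there, at 9.96 to 10.42 against 10.13 to 10.53. In ventricle an unadjusted p under 0.05 was found for 1 neuron marker of 6, Syt1 (1.16 higher in the knockouts, unadjusted p = 0.0341, limma adjusted p = 0.547), 1 astrocyte marker of 5, Slc1a2 (1.04, unadjusted p = 0.0181, limma adjusted p = 0.499) and 1 striatal marker of 4, Drd2 (1.05, unadjusted p = 0.0318, limma adjusted p = 0.539). Their wild-type and knockout means were 3.13 and 4.29 (Syt1), 2.23 and 3.27 (Slc1a2), and 2.06 and 3.12 (Drd2). The background control entries averaged 1.54 to 2.10, so the wild-type means of Slc1a2 and Drd2 lie near the controls. The summed levels in wild-type and knockout ventricles were 9.05 to 9.37 and 9.04 to 9.82 for the neuron list, 4.70 to 5.42 and 4.62 to 6.02 for the astrocyte list, and 4.15 to 4.67 and 4.17 to 5.56 for the striatal list. The neuron sum mostly follows Camk2a, with means of 8.70 and 8.76 in wild-type and knockout ventricles. In cortex the endothelial marker Pecam1 (-0.44, unadjusted p = 0.0077, limma adjusted p = 0.487) and the cardiomyocyte marker Tnnt2 (-0.56, unadjusted p = 0.0373, limma adjusted p = 0.688) had lower means in the knockouts. In cortex the 4 measured striatal markers summed to 9.25 to 10.27 in wild-type and 9.97 to 10.34 in knockout mice, with Ppp1r1b 0.48 higher (unadjusted p = 0.00201, limma adjusted p = 0.372), and the 4 measured oligodendrocyte markers to 10.29 to 10.88 and 10.75 to 11.05, with Mbp 0.34 higher (unadjusted p = 0.0102, limma adjusted p = 0.538). The part of these markers in the results of the 9 genes was not tested.

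Between the tissues the 9 genes differed widely on the deposited values. Which arrays were normalized together is not stated in the sources read, so a common scale of both tissues is assumed. In wild-type mice 2 were higher and 6 lower in ventricle than in cortex at a limma adjusted p under 0.05, where 30.2% of all probe sets were higher and 26.8% lower. Hlf had the largest difference, with 4.34 to 5.72 in ventricle and 7.46 to 7.91 in cortex (-2.49, SE 0.17, 5.60-fold, limma adjusted p = 1.21e-13). Ciart (-1.91, SE 0.37), Wee1 (-1.19, SE 0.18) and Bhlhe40 (-1.0, SE 0.17) were also lower in ventricle with no overlap between the tissues, and Tef (-0.84, SE 0.22) and Dbp (-0.48, SE 0.15) were lower with overlap. Nfil3 (1.19, SE 0.15) and Usp2 (0.98, SE 0.14) were higher in ventricle on all 6 arrays, and Bhlhe41 did not differ beyond its spread (0.08, 95% interval -0.26 to 0.42). The Dbp call was lost without F76-2 (limma adjusted p = 0.0637) or without F76-3 (0.0636). When each array was centred on its median, all tissue differences of a genotype moved up alike, the median over all probe sets from 0.09 to 0.50 in wild-type mice and from 0.09 to 0.42 in knockouts. With that constant added, Dbp (-0.07) and Tef (-0.43) no longer passed in wild-type mice and Bhlhe41 passed (0.49), and no gene moved relative to the others. The Tef call was also lost after quantile normalization over all arrays (-0.51, limma adjusted p = 0.0716).

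In the knockouts 3 genes were higher and 2 lower in ventricle at a limma adjusted p under 0.05, beside 29.7% and 25.2% of all probe sets. Hlf (-2.29, SE 0.17), Nfil3 (0.94, SE 0.15) and Usp2 (0.71, SE 0.14) kept the sign and call that they had in wild-type mice, as did Wee1 (-0.60, SE 0.18), which no longer passed with the constant of centring added (-0.27). Bhlhe41 was higher in knockout ventricles on all 6 arrays (0.82, SE 0.17, limma adjusted p = 0.000102), with 6.89 to 7.96 in ventricle and 6.01 to 6.82 in cortex. Ciart (-0.79, limma adjusted p = 0.0707), Tef (-0.50, 0.0547), Bhlhe40 (-0.30, 0.142) and Dbp (-0.14, 0.47) did not pass. The same constant takes Bhlhe40 to 0.04 and Dbp to 0.20, so the signs of these 2 depend on the scaling. Ciart passed without M77-1 (limma adjusted p = 0.0167), and Tef passed without M75-1, F76-2, F76-3 or F77-3 (0.00893 to 0.0487) and with the dimmest probe sets left out (0.0455). Whether the tissue difference itself differs between genotypes is the test of the genotype difference between tissues given above, in which no gene passed.

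Ordered by group means, Dbp was lowest in wild-type ventricle (9.12) and followed by wild-type cortex (9.60), knockout ventricle (9.76) and knockout cortex (9.90), where the knockout ventricle and the wild-type and knockout cortices overlap. Nfil3 had the opposite order of genotypes within each tissue, from 5.07 in wild-type ventricle over 4.44 in knockout ventricle and 3.88 in wild-type cortex to 3.50 in knockout cortex. Bhlhe41 was highest in knockout ventricle (7.33) and between 6.52 and 6.66 in the other 3 groups, which did not differ beyond their spread.

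**Figure D5:**
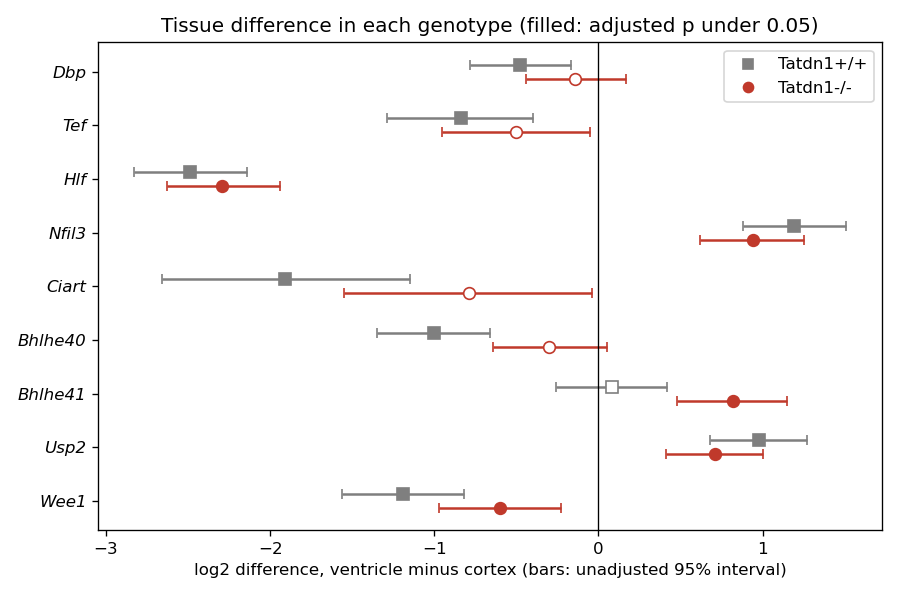
Ventricle minus cortex for each clock output gene (log2 scale) in Tatdn1+/+ (squares) and Tatdn1-/- mice (circles), 6 mice each, with unadjusted 95% limma intervals; filled symbols have an adjusted p under 0.05. Hlf is lower in ventricle by over 2 log2 units in both genotypes, and Bhlhe41 is filled in the knockouts alone.

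The sexes were compared with 3 mice per sex and genotype. The genotype difference of Dbp in ventricle was 0.96 in females and 0.32 in males. Wild-type females lay at 8.83 to 9.09 and knockout females at 9.69 to 10.06, with no overlap, and wild-type males at 9.16 to 9.53 and knockout males at 9.38 to 9.96, with overlap. The difference between the sexes was 0.65 (SE 0.26, unadjusted p = 0.0292, limma adjusted p = 0.904), the only one under 0.05 among the 9 genes in ventricle, where 5.27% of all probe sets were under 0.05. In cortex none of the 9 was (3.86% of all probe sets), and Usp2 differed by 0.30 in females and 0.70 in males (limma adjusted p of the difference 0.995). All wild-type males have code number 75 and all wild-type females code number 76, so sex and code cannot be told apart there.

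Whether the 2 tissues of a mouse deviated together was checked as the correlation of each gene's deviations from its group means, ventricle against cortex, over the 12 mice, for 9 genes. Over all 12 mice Ciart had the largest, with Pearson r = 0.63 (permutation p = 0.0332, adjusted over 9 genes 0.207) and Spearman rho = 0.60 (permutation p = 0.0429, adjusted 0.386), and r was 0.70 without the 2 mice farthest from the median. Wee1 had r = -0.58 (permutation p = 0.0459, adjusted 0.207) and rho = -0.45 (permutation p = 0.148, adjusted 0.649), but r was -0.05 without F76-3 and F76-1, so that the relation rests on those mice. The other 7 genes had r between -0.24 and 0.29, none with an adjusted permutation p under 0.05. Without the 2 farthest mice of each gene the order changed, as r went from 0.11 to 0.78 for Bhlhe40, above that of Ciart, and from -0.01 to 0.39 for Nfil3. Both genotypes entered with their means removed, and no gene of the 9 passed the adjustment.

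As a description, the genes whose deviations from the 4 group means over the 24 arrays were most like those of Dbp were Lrit1 (r = 0.79), Smarcd3 (0.75) and Pcdhb12 (0.72), and the most opposite were Samd10 (-0.83), Wapl (-0.82) and Inpp5d (-0.78), out of 19504 genes ranked. All points share arrays and normalization, and the named genes are the extremes of that ranking and were not tested. Among the other clock output genes, Bhlhe40 had r = 0.50 with Dbp (0.44 within ventricle and 0.58 within cortex) and Usp2 0.45 (0.15 and 0.78). Tef had 0.36 (0.39 and 0.35), Ciart 0.32 (0.47 and -0.09) and Hlf 0.09 (0.13 and 0.00). For 3 more genes the values had opposite signs in the tissues, with 0.58 in ventricle and -0.34 in cortex for Bhlhe41 (0.16 over both), -0.14 and 0.57 for Nfil3 (0.17), and 0.16 and -0.61 for Wee1 (0.00).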

How the data were processed

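The authors extracted RNA with the RNeasy kit, hybridised Mouse Clariom S HT arrays and deposited log2 values made with RMA (per the labels, version not given in the sources used here), which corrects background, quantile-normalizes and summarises probe sets. Tests covered 22206 gene-level probe sets, without 6923 other entries; 19572 have 1 symbol and 2634 none here. limma 3.58.1 in R 4.3.3 (lmFit, eBayes) compared knockout with wild type within each tissue (12 arrays), and tissues and their interaction in a fit of 4 groups (24 arrays), with Benjamini-Hochberg adjustment over all probe sets and a threshold of 0.05; the fits were tested on simulated data. Exact permutation tests used every split of the mice, and correlations 100000 permutations in Python 3.11.15. Mice are separate animals, and no 2 arrays were identical. The number of arrays limits the precision. Rule for names: all 9 genes, Tatdn1, genes of the pathway and marker lists with an unadjusted p under 0.05 in a tissue (at most 5 per list and tissue), and the 3 genes most and least like Dbp; core loop values by mouse (Arntl, Nr1d1, Per2) were chosen after they were seen. The members and lists were chosen with earlier results of these data known. Alternatives were other normalization and centring, a filter of the 30% dimmest probe sets, sex, array weights, a trended robust fit, the Wilcoxon test, 1 sex alone, each mouse left out, mouse as a block and, chosen after seeing the data, the code numbers. The correlation of the deviations of a mouse's tissues was -0.08 to 0.046 (consensus -0.014), so the mouse was not in the main design.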

Additional observations from a re-analysis of the deposited data

Results flagged for a closer look

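Of the 36 sets of 6 values (9 genes in 4 groups), 1 held a value far from the others by Dixon's criterion, which by chance flags about 1 in 20. It was the lowest Nfil3 value in knockout ventricle, mouse F77-1, at 3.95 with the next at 4.42 (gap over range 0.663).

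The signed genotype difference (knockout minus wild type) was larger in ventricle than in cortex at an unadjusted p under 0.05 for Bhlhe41 (0.74, unadjusted p = 0.00384, limma adjusted p = 0.311), Bhlhe40 (0.71, unadjusted p = 0.00593, limma adjusted p = 0.327), Wee1 (0.59, unadjusted p = 0.0283, limma adjusted p = 0.46) and Ciart (1.11, unadjusted p = 0.0423, limma adjusted p = 0.508), and none passed the adjustment. The difference was positive in ventricle and negative in cortex for Bhlhe40 (0.38 and -0.33), Bhlhe41 (0.67 and -0.07) and Wee1 (0.28 and -0.31), so for Wee1 its size was no larger in ventricle.

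The genotype difference of Dbp in ventricle was larger in females than in males by 0.65 (unadjusted p = 0.0292, limma adjusted p = 0.904), and it did not pass the adjustment.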

How the results depend on the processing

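No gene of the 9 passed the adjusted test of genotype, or of its difference between tissues or sexes, under any alternative. The count of genes with an unadjusted p under 0.05 in ventricle (5 of 9) became 1 in males alone (7.32% of all probe sets), 3 in females alone (5.92%), 3 by the exact Wilcoxon test (7.08%) and 1 with knockouts of code number 78 alone (5.6%, chosen after seeing the data), and ran from 3 to 7 with each mouse left out (7.3% to 9.06%). In cortex (4 of 9) it became 1 in males alone (4.24%), 2 in females alone (6.66%), 2 with all 24 arrays in 1 fit (6.84%), 2 by the Wilcoxon test (6.4%) and 1 with code 78 alone (8.47%). A count of 1 of 9 is near these shares. For the difference between tissues (4 of 9) it became 2 after quantile normalization over all arrays (8.54%) and 2 after centring (8.96%), and ran from 2 to 5 with each mouse left out (7.92% to 10.8%). With the mouse as a block the counts stayed at 4 for the difference between tissues (9.31%) and at 8 and 5 for the tissue comparison in wild-type and knockout mice (56.8% and 54.7%), and it changed no call.

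Signs turned for genes near 0: Wee1 in ventricle with code 78 alone (-0.049), Ciart in cortex with code 78 alone (-0.010), Bhlhe41 in cortex with array weights (0.020), with code 77 alone (0.045) and without M78-1 (0.033, range -0.152 to 0.033 over the mice left out), Tef in cortex without M75-1 (-0.029, range -0.029 to 0.191), Bhlhe41 between tissues in wild-type mice without M75-2 (-0.052, range -0.052 to 0.199), Bhlhe40 (0.038) and Dbp (0.198) between tissues in knockouts after centring, which moves all genes alike, and the sex difference of Ciart in cortex after quantile normalization (-0.049). Except for centring, the cause was not tested. The genotype difference kept its sign under every alternative in ventricle for each gene but Wee1. In cortex it did so for each gene but Ciart, Bhlhe41 and Tef, so a kept sign was common among the 9 genes. The mean of several probe sets could not be tried, since each gene has 1. Tef in ventricle lies near the background controls, and the lowest wild-type Ciart values there are not far above them. This limits the differences of both genes.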
